A study of Mus musculus with 4 samples.

Results

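Collagen genes and the enzymes and chaperone that build collagen were measured in RNA from primary mouse cortical astrocytes, glial cells that support neurons. The members were the 44 genes of the deposited tables named Col, number, a, number, together with the lysyl oxidases Lox and Loxl1 to Loxl4, the prolyl hydroxylase subunits P4ha1 and P4ha2, the lysyl hydroxylases Plod1 to Plod3 and the chaperone Serpinh1. These are 55 of 55467 gene IDs, and 34 of them reached the mean of 1 FPKM (fragments per kilobase of transcript, scaled to the size of the library) that was asked of a gene before it was tested. The cultures came from wild-type (WT) mice or from mice without the NAD+-consuming surface enzyme CD38 (CD38 KO), with 2 libraries of each genotype. All 4 were treated alike per the labels: cortices of pups aged 1 to 3 days, 14 days of growth in 10% serum, 12 h of shaking to remove loosely attached cells, then replating and harvest after 5 days. The title of the series concerns what CD38 in astrocytes after birth does for synapses and adult social memory, and the comparison here asks which collagen transcripts differ without it. The labels give neither the strain nor the deleted part of Cd38, so that loss of Cd38 and a strain difference between the genotypes cannot be told apart, nor do they tie the replicates to separate animals or cultures, so that p-values measure only the spread between these libraries, which may be technical.

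Collagens are matrix proteins whose chains wind into a helix of 3 strands. Fibrillar collagens form the cables of connective tissue, type IV forms the sheet-like network of basement membranes, and FACIT collagens (fibril-associated collagens with interrupted triple helices) sit on the surface of fibrils. Inside the cell prolyl 4-hydroxylases stabilise the helix, lysyl hydroxylases modify lysines and Serpinh1, also called HSP47, guards the folded procollagen; outside it lysyl oxidases cross-link the chains. In the brain, fibrillar collagens are known mostly from the meninges and vessel walls, and type IV from the basement membranes that astrocyte endfeet touch.

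Cd38 (ENSMUSG00000029084) measured 3.13 and 3.45 FPKM in the WT libraries but 0.0222 FPKM in each CD38 KO library. Depth, recovered from the steps of low values, was an estimated 26600000 to 28800000 fragments per library. The astrocyte label was borne out by Gfap, the intermediate filament of astrocytes, at 1198 to 1390 FPKM. Of the 11 astrocyte markers 7 were called lower and 2 higher in CD38 KO. Of all tested genes 8.00% were called higher and 6.35% lower, and 30.4% lay above and 29.5% below WT in both CD38 KO libraries. Microglia and macrophage markers were called higher in all 11 tested members of 13, and the summed level of the list was 35.3 and 32.7 FPKM in WT against 256 and 235 FPKM in CD38 KO. The 14 fibroblast and meningeal markers summed to 451 and 441 FPKM in WT against 171 and 179 FPKM in CD38 KO, most of it Islr, and without Islr to 34.1 and 35.0 against 30.1 and 27.4 FPKM. In that list Slc22a6 was listed at 0 in every library and Slc6a13 in both WT libraries, Lum did not exceed 0.171 FPKM and Islr, Pdgfra and Ogn were called lower. The other tested members of the list, Crabp2, Dcn and Foxc1, had overlapping groups. Below the tested level Aldh1a2 (0.302 and 0.304 FPKM in WT, 1.18 and 0.853 in CD38 KO), Tbx18, Twist1, Igf2 and Slc6a13 lay above WT in both CD38 KO libraries. Endothelial markers summed to 4.33 to 5.68 FPKM, most of it Egfl7, which was not called, with Cldn5 listed at 0 in 3 libraries. Pecam1, Cdh5 and Flt1 lay above WT in both CD38 KO libraries and Kdr below, all under the tested level. The 10 pericyte and smooth muscle markers summed to 78.8 and 74.7 FPKM in WT and 85.8 and 99.7 FPKM in CD38 KO. Of these, 1 was called higher (Tagln) and 1 lower (Cnn1). Acta2, not called, lay above WT in both CD38 KO libraries, as did Anpep, Rgs5, Myh11 and Abcc9 under the tested level. Cspg4, not called, lay below. Oligodendrocyte lineage markers summed to 190.0 to 197 FPKM in WT and 160.5 to 174 FPKM in CD38 KO, most of it Olig1, which was not called. Olig2 was called lower, and Sox10 and Mog did not exceed 0.1265 FPKM. Neuron markers summed to 86.1 and 95.4 FPKM in WT against 56.6 and 55.8 in CD38 KO, most of it Gad1, which was called lower. Tubb3, at 14.1 and 13.7 FPKM in WT against 10.1 and 13.5 in CD38 KO, was not called. Snap25 and Rbfox3 did not exceed 0.116 FPKM. The part of these cells in the collagen results below was not tested, and in bulk RNA fewer cells of a type and less RNA per cell cannot be told apart.

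The cultures held a broad set of collagen transcripts, led by type IV. By the mean over the 4 libraries Col4a1 was the most abundant chain at 45.3 to 60.0 FPKM, followed by Col4a5 at 49.8 to 56.2, which was above Col4a1 in CD38 KO 2 and level with it in WT 2, and the type V chain Col5a2 at 38.6 to 40.3 FPKM. Summed over all 44 chains the level was 400.1 and 414 FPKM in WT and 425 and 375 FPKM in CD38 KO, so that the groups overlapped. Basement membrane collagens held 41.1% to 44.2% of that sum, fibrillar collagens 25.1% and 27.4% in WT and 32.7% and 29.9% in CD38 KO, FACIT collagens 11.1% and 11.4% against 8.97% and 9.74%, and all others 17.2% to 19.6%. The fibrillar share was higher, and the FACIT share lower, in both CD38 KO libraries than in both WT libraries. The summed fibrillar level itself overlapped, at 100.4 and 114 FPKM in WT against 139 and 112 in CD38 KO. That of FACIT collagens was 44.6 and 47.2 FPKM in WT against 38.1 and 36.6 in CD38 KO. Serpinh1, at 145 to 166 FPKM, was the most abundant of the 55 genes in every library.

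**Figure D1:**
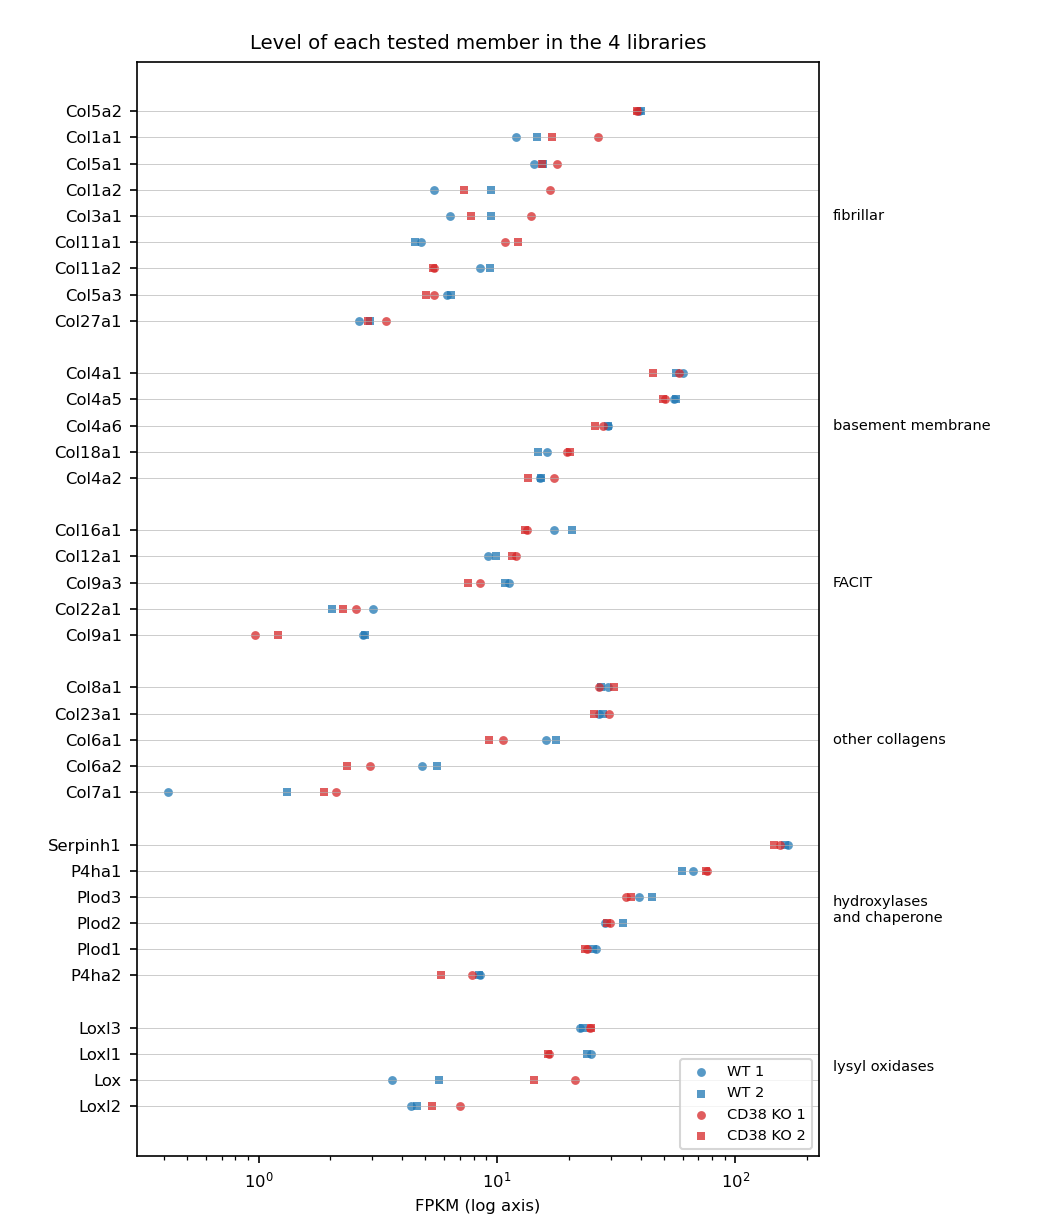
FPKM on a log axis of the 34 tested members, ordered within each group by mean level; blue is WT, red is CD38 KO, circles are replicate 1 and squares replicate 2. Serpinh1 is highest at 145 to 166 FPKM, and WT and CD38 KO points stand well apart for Col11a1, Col9a1, Col6a1, Col6a2, Loxl1 and Lox.

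Between the genotypes, 4 of the 34 tested members were higher and 7 lower in CD38 KO at an adjusted p of at most 0.05 (limma on log2(FPKM + 1), adjusted over all 13064 tested genes). Over all tested genes 14.4% were called, 8.00% higher and 6.35% lower. The higher members were Col11a1, Col18a1, Lox and P4ha1. The lower ones were Col11a2, Col16a1, Col9a1, Col9a3, Col6a1, Col6a2 and Loxl1. The median log2 difference of the 34 members was -0.04, against 0.00 over all tested genes. Both CD38 KO libraries lay above both WT libraries in 9 tested members, where 30.4% of all tested genes did so, and below them in 15, where 29.5% did, so that 24 of the 34 had groups that did not overlap, beside 59.9% of all tested genes. Fewer members were called in the fits without 1 library. Such a fit leaves 1 library in a genotype and detects less, so a lost call does not single out the library left out. Leaving out WT 1 gave 2 higher and 4 lower members, leaving out WT 2 gave 3 (Col11a1, Lox and Col7a1) and 1, and leaving out either CD38 KO library gave 1 and 2. Of the 11 called members, Col11a1 and Loxl1 were called in all 4 of these fits. With no filter on low values, Col11a1, Col11a2 and Loxl1 alone among the members were called.

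**Figure D2:**
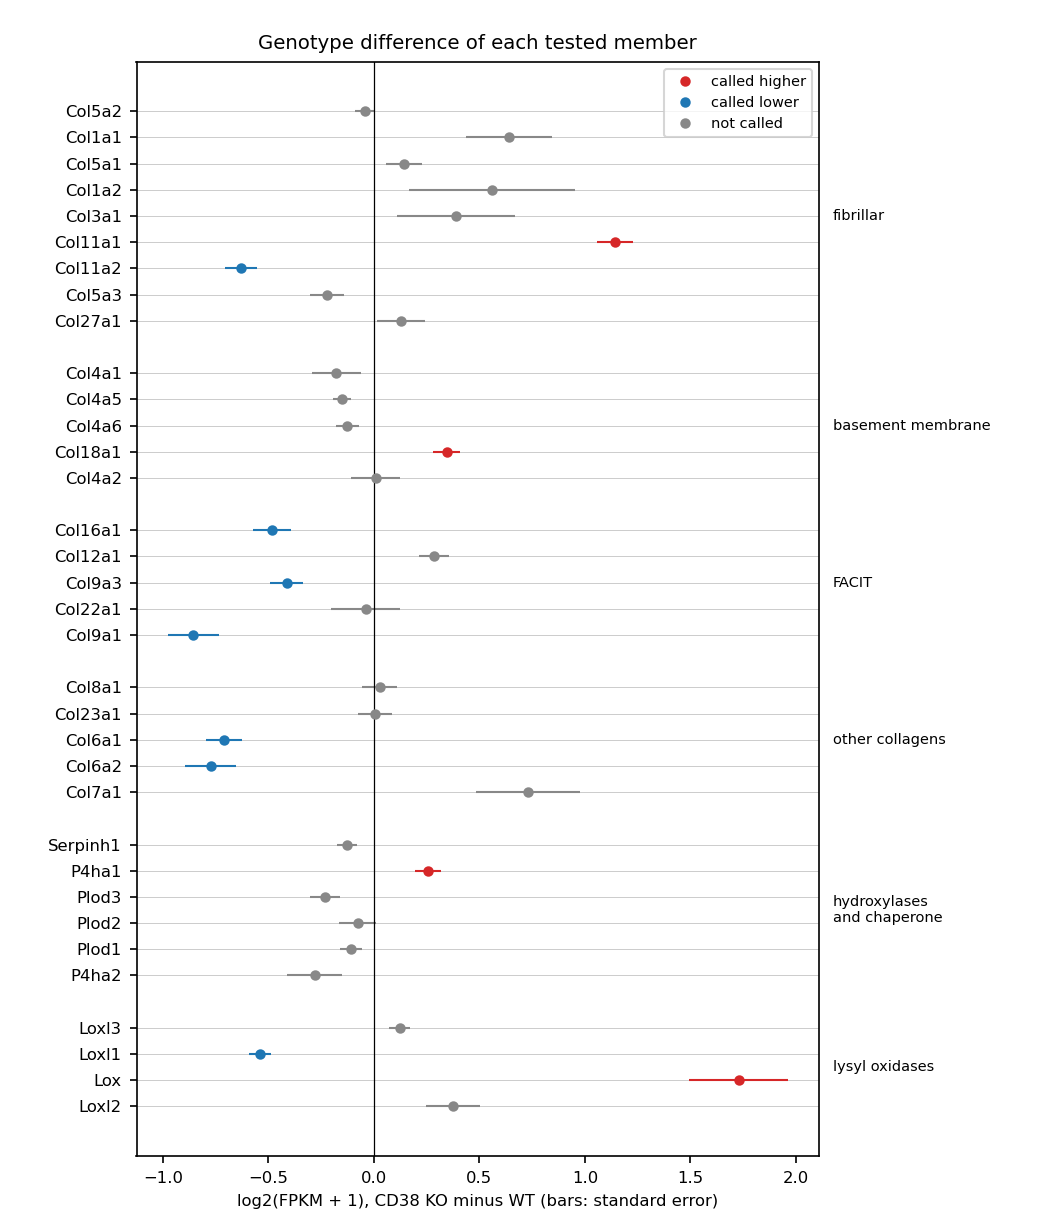
Difference in log2(FPKM + 1), CD38 KO minus WT, of the 34 tested members, with bars for the standard error of the limma fit (2 libraries against 2); red points were called higher, blue lower and grey not called. Lox has the largest difference at 1.73 with an SE of 0.23, and Col9a1 the lowest at -0.86.

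Of the fibrillar collagens 1 of 9 tested members was higher and 1 lower, beside 8.00% and 6.35% of all tested genes. The members called were the partner chains of type XI. Type XI collagen is a minor fibrillar collagen that sits in the core of fibrils and limits their width. Col11a1 (ENSMUSG00000027966, GRCm38 chromosome 3, 114030540 to 114220718) measured 4.79 and 4.53 FPKM in WT against 10.8 and 12.2 in CD38 KO. Both CD38 KO libraries were above both WT libraries, and its level rose 2.47-fold, with means of 4.66 ± 0.185 and 11.5 ± 0.997 FPKM (SD, n = 2 each; log2 difference 1.14, SE 0.09, limma adjusted p = 0.00105). Col11a2 (ENSMUSG00000024330, chromosome 17, 34039437 to 34066685) measured 8.52 and 9.32 FPKM in WT against 5.44 and 5.38 in CD38 KO. It fell from 8.92 ± 0.565 to 5.41 ± 0.0379 FPKM (SD, n = 2 each; log2 difference -0.63, SE 0.08, limma adjusted p = 0.00599), with no overlap between the groups. The ratio of Col11a1 to Col11a2 was 0.562 and 0.486 in WT and 1.98 and 2.27 in CD38 KO. The call of Col11a2 ended when WT 2 or either CD38 KO library was left out (adjusted p up to 0.0741). Col2a1, whose product is the remaining chain of type XI, was at 0.696 and 0.766 FPKM in WT and 0.515 and 0.336 FPKM in CD38 KO, under the level tested.

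The stretches in front of the start sites of the type XI pair are shown because the chains moved in opposite directions. They are the 250 bases before the RefSeq start on GRCm38.p6, both on the plus strand, written 5′ to 3′, with matches on either strand to the GC box GGGCGG, the CCAAT box CCAAT and the TATA box TATAAA in capitals.
Col11a1, chr3:114030290-114030539: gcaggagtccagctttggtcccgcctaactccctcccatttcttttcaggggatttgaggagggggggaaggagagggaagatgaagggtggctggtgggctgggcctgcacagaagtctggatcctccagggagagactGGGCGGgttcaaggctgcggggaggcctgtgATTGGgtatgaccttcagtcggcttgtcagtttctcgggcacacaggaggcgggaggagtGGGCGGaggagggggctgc
Col11a2, chr17:34038888-34039137: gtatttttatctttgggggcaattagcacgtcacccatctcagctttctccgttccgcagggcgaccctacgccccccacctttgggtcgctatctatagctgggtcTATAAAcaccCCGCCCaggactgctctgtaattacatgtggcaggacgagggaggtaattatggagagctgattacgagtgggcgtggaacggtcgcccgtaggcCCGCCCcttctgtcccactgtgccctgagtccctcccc
Both windows held 2 GC boxes, and at least 1 occurs in 32.7% of all 32851 promoter windows of this length. The Col11a1 window had a CCAAT box in reverse, found in 33.8% of windows, and no TATA box, and the Col11a2 window a TATA box, found in 12.4%, and no CCAAT box. The Col11a1 window ends next to the gene start given above. That of Col11a2 ends at 34039137, short of the gene start of 34039437, so the windows are not placed alike. Of the 55 members 37 had windows that were counted, 40 in all, of which 62.5% held a GC box, 27.5% a CCAAT box and 15.0% a TATA box. Lox and any window lying wholly within annotated exons were left out of these shares. The shares over all promoter windows had no such rule, so the sets are not alike.

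The major fibrillar chains Col1a1, Col1a2 and Col3a1, best known from fibroblasts, varied more between libraries of a genotype than most genes. Col1a1 measured 12.0 and 14.8 FPKM in WT against 26.4 and 17.1 in CD38 KO (log2 difference 0.64, SE 0.20, limma adjusted p = 0.0988). Col1a2, the other chain of type I, measured 5.46 and 9.47 FPKM in WT against 16.7 and 7.30 in CD38 KO, and Col3a1 6.36 and 9.44 against 13.9 and 7.80 FPKM. In all 3 genes CD38 KO 1 was the highest library and WT 1 the lowest, and for Col1a2 and Col3a1 the groups overlapped, since CD38 KO 2 lay below WT 2. Over 1.5-fold between the libraries of a genotype was seen in 5 tested members, Col1a1, Col1a2, Col3a1, Col7a1 and Lox, and in 5.87% of all tested genes. Dcn, the fibril-binding proteoglycan decorin of fibroblasts, measured 1.26 and 2.23 FPKM in WT against 3.56 and 0.843 in CD38 KO, thus also highest in CD38 KO 1; it was picked after its values were seen. Of the other tested fibroblast markers Crabp2 was highest in CD38 KO 1, Foxc1 in CD38 KO 2, Pdgfra in WT 2, and Islr and Ogn in WT 1. The part of fibroblasts in the spread of the type I and III chains was not tested.

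**Figure D3:**
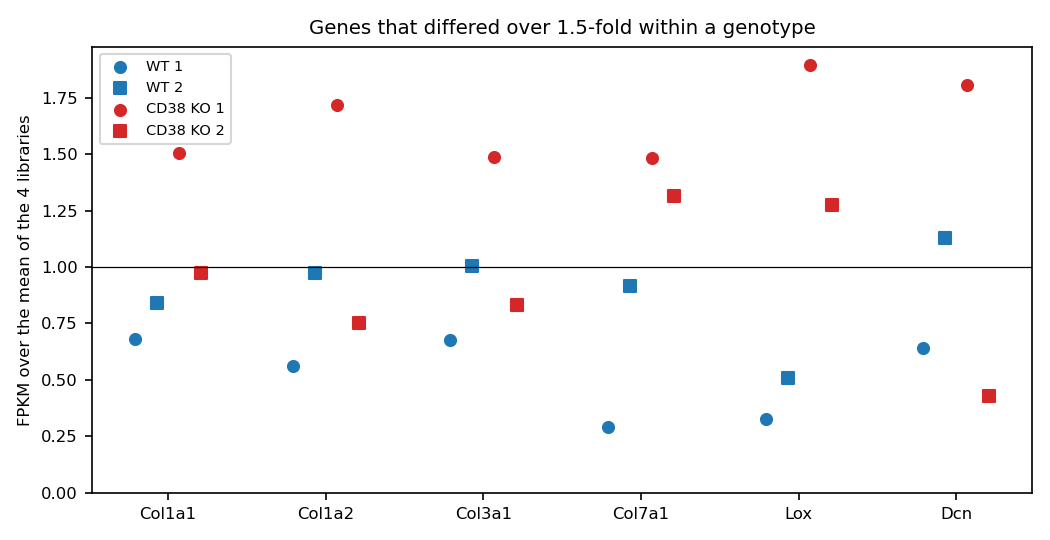
FPKM in each library divided by the mean of the 4 libraries, for the 5 tested members that differed over 1.5-fold within a genotype and for Dcn; blue is WT, red is CD38 KO, circles are replicate 1 and squares replicate 2. CD38 KO 1 (red circle) is the highest library in each of the 6 genes, while CD38 KO 2 lies below WT 2 for Col1a2, Col3a1 and Dcn. Dcn was picked after its values were seen, and Foxc1, Pdgfra, Islr and Ogn, not drawn, were highest in other libraries.

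The type V chains, which join type I in thin fibrils, were not called. Col5a2 measured 39.4 and 40.3 FPKM in WT against 38.7 and 38.6 in CD38 KO (log2 difference -0.04, SE 0.05), and Col5a1 was at 14.3 and 15.6 against 17.8 and 15.5 FPKM. Col5a3 measured 6.15 and 6.42 FPKM in WT, and was lower in both CD38 KO libraries at 5.47 and 5.02 FPKM (limma adjusted p = 0.135). Col27a1 ranged from 2.64 to 3.41 FPKM over the 4 libraries, and Col24a1 did not exceed 0.0463 FPKM.

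Among basement membrane collagens 1 of 5 tested members was called, beside 14.4% of all tested genes. The called member was not a type IV chain. Col18a1 (ENSMUSG00000001435, chromosome 10, 77052178 to 77166548), a heparan sulfate proteoglycan of basement membranes that yields the fragment endostatin, measured 16.1 and 14.8 FPKM in WT against 19.7 and 20.2 in CD38 KO. Its rise was 1.29-fold, with means of 15.5 ± 0.946 and 19.9 ± 0.352 FPKM (SD, n = 2 each; log2 difference 0.35, SE 0.06, limma adjusted p = 0.0228). That call ended in each fit without 1 library (adjusted p up to 0.145), and the annotated span of Col18a1 overlaps Slc19a1 on the other strand.

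The 6 genes of type IV lie as 3 head-to-head pairs, and the levels within a pair were not equal. Col4a1 and Col4a2 (chromosome 8), whose chains form the common network, start on opposite strands with 22 bases shared, and the files give both the same merged locus. Col4a1 measured 60.0 and 56.2 FPKM in WT against 57.9 and 45.3 in CD38 KO, and Col4a2 15.2 and 15.3 against 17.4 and 13.5 FPKM. Neither was called, and Col4a1 was 3.33 to 3.96 times Col4a2 in every library. Col4a5 and Col4a6, on chromosome X with 1308 bases between their starts, were at a ratio of 1.83 to 1.93, with Col4a6 at 29.3 and 29.2 against 27.7 and 25.8 FPKM. Col4a5 measured 55.4 and 56.2 FPKM in WT against 50.6 and 49.8 in CD38 KO, lower in both CD38 KO libraries without passing the test (log2 difference -0.15, SE 0.04, limma adjusted p = 0.0777). Col4a3 and Col4a4, with 71 bases between them, chains known from the kidney and other special membranes, did not exceed 0.222 FPKM. Col15a1, a relative of Col18a1, measured 0.481 and 0.334 FPKM in WT against 1.04 and 1.26 in CD38 KO, below the mean level that was tested.

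FACIT collagens had 3 of 5 tested members lower and 0 higher; 6.35% of all tested genes were lower. Col16a1 (ENSMUSG00000040690, chromosome 4, 130047840 to 130099283), which borders fibrils and basement membranes, measured 17.4 and 20.6 FPKM in WT against 13.4 and 13.2 in CD38 KO. It fell from 19.0 ± 2.31 to 13.3 ± 0.17 FPKM (SD, n = 2 each; log2 difference -0.48, SE 0.09, limma adjusted p = 0.0227), a call that ended when WT 2 or either CD38 KO library was left out (up to 0.154). The type IX collagen, which decorates the fibrils of cartilage and the eye, is made of 3 chains. Col9a1 (ENSMUSG00000026147, chromosome 1, 24177610 to 24252684) measured 2.74 and 2.80 FPKM in WT against 0.968 and 1.20 in CD38 KO. It fell 2.55-fold (log2 difference -0.86, SE 0.12, limma adjusted p = 0.00974), a call that ended when either WT library or CD38 KO 1 was left out (up to 0.0661). Col9a3 (ENSMUSG00000027570, chromosome 2, 180597790 to 180622189) measured 11.2 and 10.8 FPKM in WT against 8.50 and 7.53 in CD38 KO. Its fall (log2 difference -0.41, SE 0.08, limma adjusted p = 0.0257) lost the call in each fit without 1 library (up to 0.136), and its span overlaps Tcfl5 on the other strand. Col9a2, the remaining chain, was at 0.103 to 0.293 FPKM, so the transcripts of the 3 partner chains stood at unlike levels in both genotypes. Col12a1, a FACIT collagen of dense tissue, measured 9.14 and 9.93 FPKM in WT against 12.1 and 11.6 in CD38 KO, just outside the threshold (limma adjusted p = 0.0525). Col22a1, the remaining tested FACIT gene, ranged from 2.03 to 3.03 FPKM. With 0.1 added before the log Col12a1 was called (0.0482), as it was at a filter of 5 FPKM, with median-of-ratios scaling and with robust moderation.

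Of the remaining collagens 0 of 5 tested members were higher and 2 lower, both chains of type VI, beside 8.00% and 6.35% of all tested genes. Type VI collagen forms beaded filaments around cells from the products of Col6a1, Col6a2 and a longer chain such as that of Col6a3. Col6a1 (ENSMUSG00000001119, chromosome 10, 76708792 to 76726168) measured 16.0 and 17.7 FPKM in WT against 10.6 and 9.28 in CD38 KO, a fall from 16.9 ± 1.20 to 9.93 ± 0.922 FPKM (SD, n = 2 each; log2 difference -0.71, SE 0.09, limma adjusted p = 0.00591). Col6a2 (ENSMUSG00000020241), 85.2 kb from it on the same strand (76595762 to 76623630), measured 4.83 and 5.59 FPKM in WT against 2.92 and 2.35 in CD38 KO, a fall of 0.77 on the log2 scale (SE 0.12, limma adjusted p = 0.0137). For both genes every CD38 KO value was below every WT value, and the ratio of Col6a1 to Col6a2 was 3.17 to 3.95. The call of Col6a1 ended without WT 2 and without CD38 KO 2 (up to 0.0658), and that of Col6a2 in each fit without 1 library (up to 0.1). Col6a3 was low throughout, at 0.179 and 0.299 FPKM in WT and 0.627 and 0.253 FPKM in CD38 KO, and Col6a4, Col6a5 and Col6a6 did not exceed 0.0604 FPKM.

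Col8a1, a network-forming collagen of vessel walls, and Col23a1, a collagen that spans the cell membrane, were abundant and not called. Col8a1 measured 29.3 and 27.2 FPKM in WT against 26.8 and 31.0 in CD38 KO, and Col23a1 26.8 and 27.97 against 29.6 and 25.5 FPKM, with overlapping groups for both. Col7a1, the anchoring fibril collagen, measured 0.415 and 1.31 FPKM in WT against 2.12 and 1.88 in CD38 KO. It was not called (limma adjusted p = 0.112), and its WT libraries differed 3.16-fold. The fit without WT 2, the only one that called it, rests on the low value of WT 1 alone.

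The 21 members below the tested level were 20 collagen chains and Loxl4, and 15 of them stayed under 0.5 FPKM in every library. In a limma fit with no filter 0 of the 21 were called, and the lowest adjusted p was 0.0729, that of Col14a1. An unadjusted p under 0.05 was seen in 5 of the 21. In the main fit 3955 of the 13064 tested genes had such a p, though those genes are better expressed and the sets are not alike. Col14a1, a FACIT collagen of soft connective tissue, measured 0.0118 and 0.00642 FPKM in WT against 0.154 and 0.127 in CD38 KO. Col20a1 went the other way at 0.883 and 0.926 against 0.343 and 0.426 FPKM. Col28a1 was listed at 0 in both WT libraries and at 0.117 and 0.0677 FPKM in CD38 KO. For its longest transcript 3 fragments, taken as a rough upper limit where 0 are counted, would give 0.0278 FPKM. Col19a1, Col25a1 and Col6a6 were listed at 0 in 3 libraries each, Col13a1 in 2 and Col6a4 in 1. Col10a1, the collagen of growth plate cartilage, did not exceed 0.0478 FPKM, nor Col17a1, Col8a2 and Col9a2 0.293 FPKM, while Loxl4 ranged from 0.472 to 0.703 FPKM and Col26a1 was at 0.602 and 0.298 against 0.0994 and 0.159 FPKM.

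Gene structure differed among the collagen chains. In the annotation the 44 collagen genes had a median of 47 coding exons, from 2 in Col8a1, Col8a2 and Col10a1 to 118 in Col7a1, against a median of 6 over all 21951 protein-coding genes. Of the internal coding exons of fibrillar collagens 48.6% were exactly 54 bases long and 83.9% a multiple of 9 bases, the length of a glycine-led repeat, against 0.732% and 14.3% over all protein-coding genes. The share of 54-base exons was 4.42% in basement membrane collagens, 26.3% in FACIT collagens and 7.57% in the 16 others. Col11a1 and Col11a2, whose transcripts moved apart, were alike in this respect, with 67 and 66 coding exons and 47.7% and 48.4% of 54 bases. None of the 44 internal coding exons of lysyl oxidases had that length, too few to set beside the 0.732% of all protein-coding genes.

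Among the hydroxylases and the chaperone 1 of 6 tested members was higher and 0 lower, beside 8.00% and 6.35% of all tested genes. P4ha1 (ENSMUSG00000019916, chromosome 10, 59323296 to 59373304), the main catalytic subunit of prolyl 4-hydroxylase, measured 66.5 and 59.7 FPKM in WT against 75.9 and 75.2 in CD38 KO. It rose 1.20-fold (log2 difference 0.26, SE 0.06, limma adjusted p = 0.048), just inside the threshold, and lost the call when WT 2 or either CD38 KO library was left out (up to 0.217), without a trend (0.108) and with median-of-ratios scaling (0.0602). P4ha2 measured 8.48 and 8.38 FPKM in WT against 7.84 and 5.82 in CD38 KO, and Serpinh1 166 and 161 against 154 and 145 FPKM. Plod3, which hydroxylates lysines and attaches sugars to them, measured 39.5 and 44.5 FPKM in WT against 34.7 and 36.4 in CD38 KO (limma adjusted p = 0.0861). These 3 genes and Plod1, at 25.9 and 25.2 against 23.8 and 23.5 FPKM, were lower in both CD38 KO libraries than in both WT libraries without passing the test. Of all tested genes 29.5% lay below WT in this way. Plod2, which acts on the ends of the chains, ranged from 28.4 to 33.7 FPKM with overlapping groups.

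The other genes of collagen synthesis and processing had 0 of 20 tested members higher and 2 lower, of 24 listed. Among all tested genes 8.00% were higher and 6.35% lower. P4ha3 (ENSMUSG00000051048), the third catalytic subunit of prolyl 4-hydroxylase, measured 40.5 and 38.9 FPKM in WT against 16.7 and 15.8 in CD38 KO (log2 difference -1.24, SE 0.06, limma adjusted p = 0.000166). With it the makeup of the hydroxylase transcripts shifted: P4ha3 made up 35.0% and 36.4% of the summed FPKM of P4ha1, P4ha2 and P4ha3 in WT and 16.6% and 16.4% in CD38 KO, and P4ha1 57.6% and 55.8% against 75.6% and 77.6%. Colgalt2, which adds galactose to hydroxylysine, measured 6.06 and 7.09 FPKM in WT against 1.60 and 1.49 in CD38 KO (log2 difference -1.57, SE 0.11, limma adjusted p = 0.000753), while its relative Colgalt1 ranged from 16.4 to 17.8 FPKM. P4ha3 and Colgalt2 stayed called in all 4 fits without 1 library. The prolyl hydroxylase partner P4hb, at 131 to 145 FPKM, and Bmp1, which trims fibrillar procollagens, at 47.1 to 59.2 FPKM, were lower in both CD38 KO libraries and not called. In all, 8 of the 20 tested members of this list lay below WT in both CD38 KO libraries, beside 29.5% of all tested genes.

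The 250 bases before the starts of P4ha1 and P4ha3 are shown for the same reason as those of type XI, with the same motifs in capitals; both genes are on the plus strand.
P4ha1, chr10:59323046-59323295: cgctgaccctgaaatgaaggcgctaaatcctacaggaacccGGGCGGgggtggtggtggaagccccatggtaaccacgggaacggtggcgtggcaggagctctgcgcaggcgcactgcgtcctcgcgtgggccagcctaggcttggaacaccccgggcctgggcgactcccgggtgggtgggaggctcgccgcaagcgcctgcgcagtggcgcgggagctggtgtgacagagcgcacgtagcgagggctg
P4ha3, chr7:100285270-100285519: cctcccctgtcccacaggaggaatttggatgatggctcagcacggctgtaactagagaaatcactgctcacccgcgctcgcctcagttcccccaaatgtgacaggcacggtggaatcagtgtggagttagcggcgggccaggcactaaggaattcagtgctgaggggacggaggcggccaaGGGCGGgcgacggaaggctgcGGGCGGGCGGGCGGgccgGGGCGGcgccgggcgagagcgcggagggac
The P4ha1 window held 1 GC box and the P4ha3 window 5, some of them overlapping, and neither held a CCAAT or TATA box.

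The lysyl oxidases moved apart, with 1 of 4 tested members higher and 1 lower, beside 8.00% and 6.35% of all tested genes. Lox (ENSMUSG00000024529), the founding enzyme that cross-links collagen and elastin, measured 3.64 and 5.69 FPKM in WT against 21.3 and 14.3 in CD38 KO. The rise was 3.81-fold, with means of 4.66 ± 1.45 and 17.8 ± 4.93 FPKM (SD, n = 2 each; log2 difference 1.73, SE 0.23, limma adjusted p = 0.00838), the largest difference of any tested member. Its groups did not overlap, but its call ended when WT 1 or either CD38 KO library was left out (up to 0.0897). Loxl1 (ENSMUSG00000032334, chromosome 9, 58287738 to 58313186), which acts mainly on elastic fibres, measured 24.9 and 23.9 FPKM in WT against 16.5 and 16.4 in CD38 KO, a fall of 0.54 on the log2 scale (SE 0.05, limma adjusted p = 0.0029) that was called in all 4 fits without 1 library (up to 0.0492). The ratio of Lox to Loxl1 was 0.146 and 0.238 in WT and 1.29 and 0.87 in CD38 KO. Loxl2 measured 4.35 and 4.64 FPKM in WT against 6.998 and 5.34 in CD38 KO (limma adjusted p = 0.114), and Loxl3 22.4 and 22.9 against 24.6 and 24.9 FPKM, both higher in each CD38 KO library without passing the test. Of all tested genes 30.4% lay above WT in both CD38 KO libraries.

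**Figure D4:**
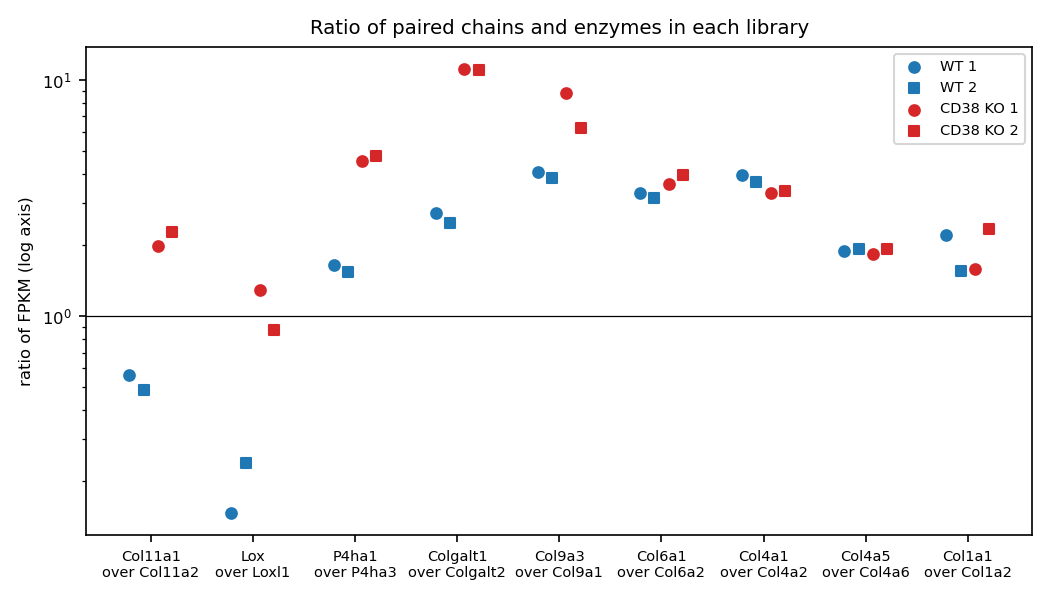
Ratio of FPKM of partner chains or related enzymes in each library, on a log axis; blue is WT, red is CD38 KO, circles are replicate 1 and squares replicate 2, and the line marks equal levels. Col11a1 over Col11a2 lies at 0.486 to 0.562 in WT and at 1.98 to 2.27 in CD38 KO, while Col4a5 over Col4a6 lies at 1.83 to 1.93 in all 4 libraries.

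Receptors for collagen and proteins that bind its fibrils had 1 of 13 tested members higher and 2 lower, of 19 listed. Among all tested genes 8.00% were higher and 6.35% lower. Lair1, a collagen receptor of immune cells, rose from 0.785 ± 0.12 to 2.42 ± 0.624 FPKM (SD, n = 2 each; limma adjusted p = 0.0214), beside the summed microglia and macrophage markers of 32.7 to 35.3 FPKM in WT and 235 to 256 FPKM in CD38 KO, whose part was not tested. Sparc, a collagen-binding matrix protein, measured 1220 and 1211 FPKM in WT against 1043 and 1094 in CD38 KO (log2 difference -0.19, SE 0.04, limma adjusted p = 0.0467), and the proteoglycan Ogn fell by 0.40 on the log2 scale (limma adjusted p = 0.0484). The calls of Sparc and Ogn ended in every fit without 1 library (up to 0.223 and 0.193), with median-of-ratios scaling (0.0579 and 0.0531) and with no trend (0.126 and 0.089), and that of Lair1 when either WT library or CD38 KO 1 was left out (up to 0.114). The receptors Ddr1, at 312 to 349 FPKM, and Itgb1, at 113 to 120 FPKM, were not called.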

How the data were processed

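The authors deposited 1 FPKM value per gene and library, per the file headers. Demultiplexing by bcl2fastq 2.17, the aligner STAR 2.7.0f, Cufflinks 2.2.1 and build GRCm38 are listed in the submitters' processing notes; the labels' protocols give stranded polyA libraries. Not given in the sources used here: annotation release, use of strand in counting, scaling of libraries. FPKM is summed over isoforms, so depth per gene is approximate. Depth was recovered from genes with 1 transcript over 600 bases in GENCODE M21, where 91.9% to 93.0% of values below 10 fragments were within 0.1 of a whole number; floors cover counting error only.

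For each gene whose mean reached 1 FPKM (and Cd38), limma 3.58.1 (R 4.3.3) was run on log2(FPKM + 1) with no term but genotype, with a trend, two-sided, Benjamini-Hochberg adjusted at 0.05. This understates changes of low genes; folds are ratios of mean FPKM. On simulated data with the spread of these libraries, the fit recovered 53.7% of differences of 0.5 on the log2 scale and 81.6% of those of 1.0. These were placed in better expressed genes only. A member not called may thus still differ. Where 1 library was left out, its partner was taken to vary as the other genotype does. The members and lists were chosen with earlier results of these data known. Named were called members, the 3 most abundant of each of 6 groups, their partner chains, and up to 4 called genes of smallest p per list; the others were named after their values were seen. Col15a1 and Col18a1 were grouped with basement membrane. Gene coordinates are from GENCODE M21, which matched all 55 members; in 15 the locus in the files is wider than the gene. Other steps used Python 3.11.15. Alternatives were added values of 0.1 and 0.5, filters of 0 and 5 FPKM, quantile and median-of-ratios scaling, no trend, robust moderation, a replicate block and each library left out.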

Additional observations from a re-analysis of the deposited data

How the results depend on the processing

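Against 4 higher and 7 lower members, 1 and 2 were called with no filter, and 1 to 3 and 1 to 4 in the fits without 1 library, where the 3 higher include Col7a1. Over all genes 1045 higher and 830 lower calls became 430 and 312 with no filter, and 306 to 458 and 225 to 284 without 1 library. With the replicate number as a block 2 members were higher and 4 lower, with Col16a1 (adjusted p = 0.0527), Col18a1 (0.0656), Col6a2 (0.0509), Col9a3 (0.0537) and P4ha1 (0.0773) no longer called by limma, and 610 and 427 over all genes. The labels do not say that a number marks a shared litter or day, and libraries of the same number deviated in opposite directions (r = -0.16 across genes, which are not independent). With a replicate block that crosses the numbers, an alternative chosen after seeing the data, 8 members were higher and 7 lower. No called member changed direction under any alternative run. Among members not called, Col23a1 (0.00) turned to -0.000705 with quantile normalization and -0.00174 with median-of-ratios scaling, and Col4a2 (0.01) to -0.0126 with quantile normalization. Without 1 library Col23a1 ranged from -0.09996 to 0.107, Col4a2 from -0.166 to 0.181 and Col8a1 from -0.074 to 0.13. The cause of these shifts was not tested. The ratio of summed fibrillar FPKM, CD38 KO to WT, ranged from 1.05 to 1.30 without 1 library. The number of libraries limits all calls, and transcripts under about 0.03 FPKM rest on few fragments.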
